A study of Mus musculus with 8 samples.

Results

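The subcortical maternal complex is a protein assembly that lies under the cortex of the growing egg and is inherited by the early embryo. Its 7 genes studied here, Nlrp5, Ooep, Tle6, Khdc3, Padi6, Nlrp4f and Zbed3, were chosen by name as genes of the complex. All 7 were found among the 54838 genes of the count table and among the 15572 genes with enough reads to be tested. RNA was sequenced from mouse oocytes of strain C57BL/6 in 8 libraries of 5 to 10 oocytes each, 2 libraries in each of 4 groups. The groups were wildtype oocytes at the germinal vesicle (GV) stage, BAF250aGKO oocytes at GV, wildtype oocytes arrested in second meiotic metaphase (MII) and BAF250aGKO oocytes at MII, called control and knockout below. BAF250a is the protein of Arid1a, a DNA-binding subunit of the BAF chromatin remodelling complex, and the knockout was made with Gdf9-cre, whose promoter is active in oocytes from early follicle stages on. The sources used here give neither the floxed exon nor the ages of the mice, nor whether the control mice carried a floxed allele.

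Transcripts of the complex are made and stored while the oocyte grows. At GV the oocyte is arrested in the first meiotic prophase with an intact nucleus, and during maturation to MII it is largely silent in transcription while stored maternal mRNAs are translated, lengthened or shortened at their poly(A) tails, and degraded. The proteins of the complex are known for their roles in the cytoplasmic lattices of the egg, in the position of organelles and the spindle, and in the first cleavages of the embryo.

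The libraries held between 19587421 and 33289150 gene reads. The targeted gene Arid1a was low in all 4 libraries labelled knockout, with 86 and 312 reads at GV and 1109 and 576 at MII, against 8178 and 10928 for control at GV and 42047 and 39148 at MII. All 10 oocyte markers looked at had reads in every library. Together these markers held 34258 to 39518 CPM, the read count scaled to a common depth over all gene reads, at GV and 18899 to 21693 at MII. The 18 markers of granulosa and cumulus cells held 156 to 262 CPM at GV and 352 to 414 CPM at MII, with 4 to 11 of them at 0 in a library, and the 15 markers of blood and immune cells held 1.17 to 21.7 CPM, with Ptprc at 0 throughout. The higher granulosa sum at MII came from Bmpr1b, at 97.8 ± 0.249 CPM in control GV and 234 ± 10.9 in control MII, and Cyp19a1, at 25.6 ± 5.28 and 80.5 ± 9.89 CPM. Other markers went in both directions in mean level. Amh was at 4.18 ± 1.32 and 0.0165 ± 0.0234 CPM and Inha at 43.9 ± 36.9 and 15.9 ± 10.6 CPM in the same groups. In knockout GV Amh and Inha were at 0.358 ± 0.214 and 10.8 ± 1.37 CPM. Inhba was higher in control MII, at 0.418 ± 0.591 CPM in control GV and 3.10 ± 1.49 in control MII. Ptx3 was at 0 and 3.62 ± 3.20 CPM in these groups. Of the 14 markers tested, 3 rose and 2 fell with maturation in control, where 21.2% and 27.9% of all tested genes did. Between genotypes, Hsd17b1 (adjusted p = 0.0305) and the immune markers Cd52 and Ccl3 were lower in knockout MII (edgeR quasi-likelihood test), from 2.69 ± 0.49, 7.10 ± 4.16 and 6.60 ± 1.54 CPM in control. Reads on mitochondrial genes made up 0.105% to 0.446% at GV. At MII they made up 6.03% and 6.93% in control and 3.03% and 4.41% in knockout, without overlap between the genotypes. The part of these reads and of the marker levels in the differences between stages and genotypes was not tested. Whether replicates are from separate mice is not in the labels, and the p-values below therefore measure only the spread between these libraries.

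The genes lie on 5 chromosomes of mm10, and all are protein-coding. Nlrp5 (ENSMUSG00000015721) lies on chromosome 7 from 23385889 to 23441922 on the plus strand, Ooep (ENSMUSG00000032346) on chromosome 9 from 78376109 to 78378725 on the minus strand, and Tle6 (ENSMUSG00000034758) on chromosome 10 from 81590904 to 81601073 on the minus strand. Khdc3 (ENSMUSG00000092622) spans 73101836 to 73104438 on the plus strand of chromosome 9, and Padi6 (ENSMUSG00000040935) spans 140727355 to 140742643 on the minus strand of chromosome 4. Nlrp4f (ENSMUSG00000032999) and Zbed3 (ENSMUSG00000041995) are both on chromosome 13, from 65177111 to 65205977 on the minus strand and from 95323612 to 95337841 on the plus strand.

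The 3′ ends of these mRNAs are shown because the genes differ there in letters that stored maternal mRNAs are known to use. The poly(A) signal, AATAAA or ATTAAA, directs cleavage of the transcript, and the cytoplasmic polyadenylation element, TTTTAT or TTTTAAT, is bound by CPEB1, which controls the tail length and translation of stored mRNAs in maturing oocytes. Each stretch below is 30 bases of the 3′ untranslated region, 5′ to 3′ on the gene's own strand, from the main GENCODE M21 transcript, with the signal and the element in capitals and other bases in lower case.
Nlrp5: tagcaagaatgaAATAAAcacagcatttag
Tle6: cgagttgcgtgtAATAAAacaattgaaatg
Khdc3: ttaaagtattctAATAAAaaaaaaattgca
Padi6: tgccatagagccAATAAAgcatggtattct
Nlrp4f: tttgtgTTTTATATTAAAgaatagtagtca
Zbed3: ttttttttTTTTAATAAAcTTTTATttatc
On mm10 these stretches are chr7:23441887-23441916 for Nlrp5, chr10:81590907-81590936 for Tle6, chr9:73104409-73104438 for Khdc3, chr4:140727361-140727390 for Padi6, chr13:65177122-65177151 for Nlrp4f and chr13:95337809-95337838 for Zbed3, all in the last exon. Nlrp4f has the letters TTTTAT directly before an ATTAAA signal. Zbed3 has TTTTAAT overlapping its AATAAA signal and TTTTAT after it. The last 100 bases of Nlrp5, Tle6, Khdc3 and Padi6 hold a signal and no such element, and those of Ooep hold neither set of letters. The same held for every coding transcript of these genes that the annotation ranks as a main or alternative form. The element stood in the last 100 bases of 19.8% of 12185 tested coding genes with a 3′ untranslated region of at least that length. These letters were looked for after the changes between stages were known, and a match is not a measured binding site.

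Levels were first compared within each stage, as CPM scaled by the trimmed mean of M values (TMM) and divided by exon length in kb, since read counts grow with length. In control GV oocytes Zbed3, a zinc finger protein with a role in the symmetric first cleavage, stood highest at 4888 ± 3487 CPM per kb (mean ± SD, n = 2, as for all group means below). Tle6, a member of the Groucho family that joins the core of the complex, followed at 2233 ± 18.9 CPM per kb, Ooep, a KH-domain core protein, at 2195 ± 729 and Padi6, a protein of the peptidylarginine deiminase family needed for the lattices, at 1820 ± 586. The libraries of Tle6, Ooep and Padi6 overlapped, so these neighbours were not separated. Zbed3 and Ooep also overlapped, as the lower Zbed3 library was at 2422 CPM per kb and the higher Ooep library at 2710. Nlrp5, the NLR-family scaffold also called MATER, was at 285 ± 138 CPM per kb. Nlrp4f, another NLR-family protein of the complex, was at 99.0 ± 24.1 and Khdc3, the KH-domain protein also called FILIA, at 52.9 ± 8.59 CPM per kb. Among 15569 tested genes with a known exon length, Zbed3 ranked 4, Tle6 14, Ooep 15 and Padi6 17, while Khdc3 ranked 1044.

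The order was the same in knockout GV oocytes, with Zbed3 at 10130 ± 4542 CPM per kb and at rank 1. At MII the order changed. Zbed3 remained in the top 5 at 8510 ± 582 CPM per kb in control and 10530 ± 988 in knockout, and no other gene of the complex was above 138 CPM per kb in either group mean. In control MII, Tle6 (138 ± 11.9 CPM per kb) and Nlrp4f (92.5 ± 7.17) came next, followed by Padi6 (49.7 ± 3.85) and Ooep (48.1 ± 5.52), whose libraries overlapped, and Nlrp5 (37.8 ± 4.43). Khdc3 was last at 1.95 ± 0.564 CPM per kb and ranked 6673. In knockout MII the libraries of neighbours from Nlrp4f at position 2 to Padi6 at position 6 overlapped at each step, so their order there was not resolved.

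**Figure D1:**
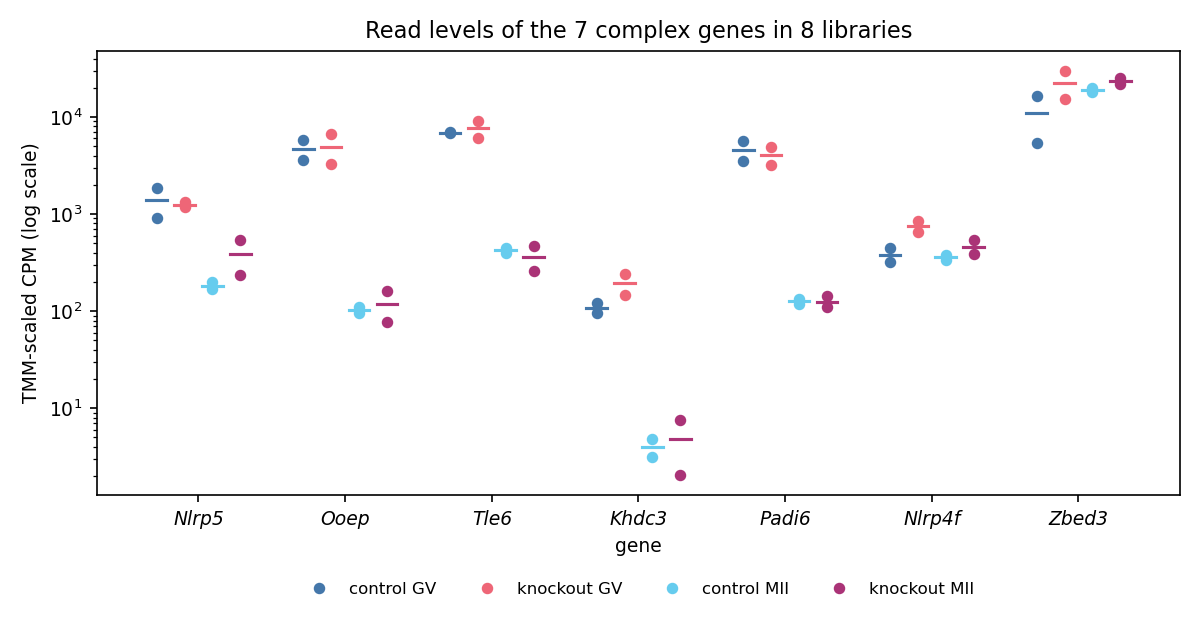
TMM-scaled CPM on a log axis for each of the 7 genes, with 1 point per library and a line at the mean of each group of 2. Points of Nlrp5, Ooep, Tle6, Khdc3 and Padi6 are all lower at MII than at GV in both genotypes, while the MII points of Nlrp4f in control and of Zbed3 in knockout lie within the range of the GV points.

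The makeup of the complex mRNA pool differed between the stages. Of the summed length-scaled level of the 7 genes, Zbed3 held 52.5% and 26.5% in the control GV libraries and 60.9% and 56.6% in those of knockout GV. Its shares at MII were 96.0% and 95.7% (control) and 95.8% and 96.6% (knockout). The other 6 genes together therefore made up 39.1% to 73.5% of the pool at GV and 3.45% to 4.28% at MII, without overlap. These are shares of mRNA reads, and no protein was measured.

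**Figure D2:**
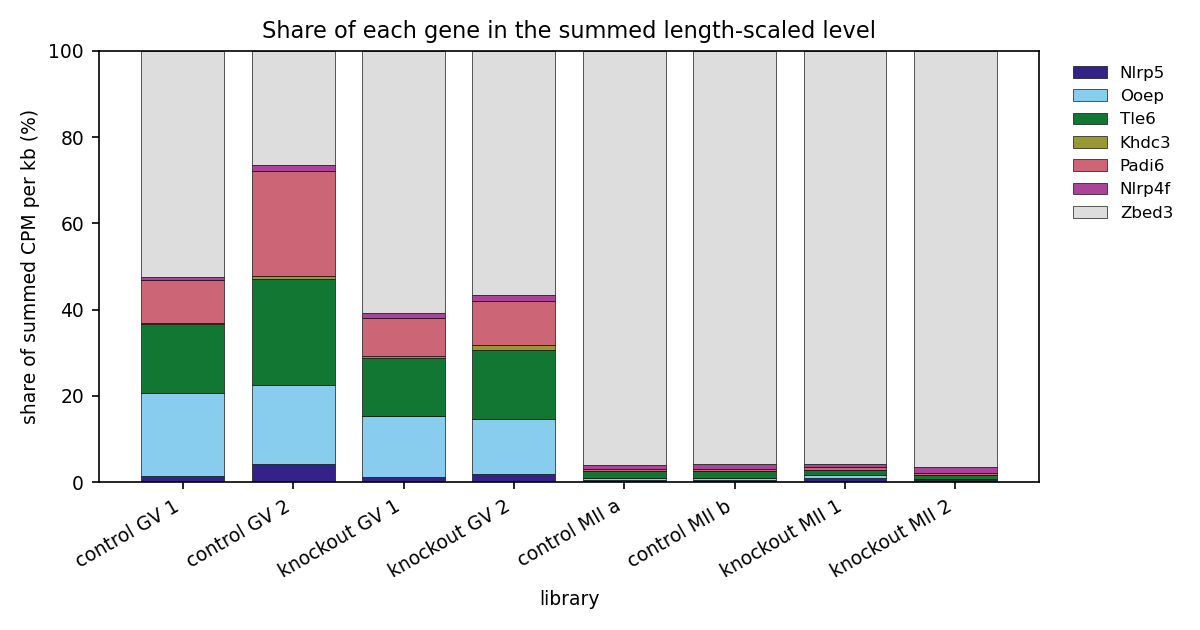
Share of each gene in the summed CPM per kb of the 7 genes, in percent, as 1 stacked bar per library. Zbed3 (light grey) fills 26.5% to 60.9% of the GV bars and 95.7% to 96.6% of the MII bars.

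The first comparison across groups was maturation, MII against GV, within each genotype. Of the 7 genes, 5 fell in control and the same 5 fell in knockout oocytes: the core genes Nlrp5, Ooep and Tle6, with Khdc3 and Padi6. Nlrp4f and Zbed3 passed in neither (edgeR quasi-likelihood test, adjusted p below 0.05). Among all tested genes 27.9% fell and 21.2% rose in control, and 29.1% fell and 19.9% rose in knockout, or 49.1% and 49.0% in either direction. The median log2 fold change of the 7 genes was -4.02 in control and -4.38 in knockout, beside -0.20 and -0.33 over all tested genes. CPM are shares of a library, and total RNA per oocyte was not measured. Less RNA of one gene and more of the others therefore cannot be told apart. How RNA was selected is not in the sources used here. Loss of an mRNA and weaker capture of one with a shortened poly(A) tail therefore cannot be told apart either. Likewise, with 5 to 10 oocytes pooled, fewer oocytes carrying a transcript and less of it in each cannot be told apart.

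Ooep was read at 5794 and 3590 CPM in control GV and at 94.5 and 111 CPM in control MII. In knockout it was at 6601 and 3299 CPM at GV and at 160 and 77.4 CPM at MII. Every MII library was below every GV library. Ooep changed by -5.51 ± 0.54 in control (log2 fold change ± SE, edgeR quasi-likelihood adjusted p = 4.48e-05) and by -5.38 ± 0.54 in knockout (adjusted p = 3.79e-05). The fitted level at MII was 2.19% and 2.40% of the GV level.

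Padi6 was at 3558 and 5658 CPM in control GV and at 133 and 119 CPM in control MII. In knockout it was at 4949 and 3194 CPM at GV and at 142 and 109 CPM at MII, again without overlap between stages. Its log2 fold change was -5.20 ± 0.42 in control (edgeR adjusted p = 1.86e-05) and -5.02 ± 0.41 in knockout (adjusted p = 1.35e-05), to 2.73% and 3.08% of the GV level.

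Tle6 had the closest control GV libraries, 6855 and 6937 CPM, and was at 451 and 399 CPM in control MII. In knockout it was at 9128 and 6087 CPM at GV and at 468 and 262 CPM at MII. The stages did not overlap in either genotype. The change of Tle6 was -4.02 ± 0.41 in control and -4.38 ± 0.42 in knockout (edgeR adjusted p = 5.41e-05 and 2.87e-05), to 6.16% and 4.80% of the GV level.

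Khdc3 was the lowest of the 7 genes at GV, at 96.1 and 121 CPM in control and 146 and 240 CPM in knockout. At MII it was at 4.81 and 3.17 CPM in control, from 125 and 96 reads, and at 7.63 and 2.04 CPM in knockout, from 256 and 54 reads. Its MII libraries all lay below its GV libraries. The change was -4.77 ± 0.59 in control and -5.31 ± 0.61 in knockout (edgeR adjusted p = 0.000149 and 8.28e-05), to 3.67% and 2.52% of the GV level. The fall in knockout was -6.63 without knockout MII replicate 1 and -4.66 without knockout MII replicate 2, and that of Ooep was -6.06 without knockout MII replicate 1, all past the threshold.

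Nlrp5 fell least of the 5. It was at 907 and 1855 CPM in control GV and at 198 and 168 CPM in control MII, a change of -2.91 ± 0.47 (edgeR adjusted p = 0.000616) to 13.3% of the GV level. In knockout it was at 1327 and 1173 CPM at GV and at 543 and 233 CPM at MII, a change of -1.69 ± 0.44 (adjusted p = 0.0102) to 31.0%. The stages did not overlap in either genotype, but the fall in knockout depended on 1 library: it was -2.49 without knockout MII replicate 1 and -1.20 without knockout MII replicate 2, where it no longer passed (edgeR adjusted p = 0.0675). In control the fall was -2.32 without control GV replicate 2.

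Nlrp4f was at 317 and 449 CPM in control GV and at 338 and 378 CPM in control MII, where the MII libraries lay between the GV libraries (-0.10 ± 0.30, edgeR adjusted p = 0.811). In knockout it was at 850 and 653 CPM at GV and at 388 and 534 CPM at MII, without overlap (-0.70 ± 0.30, adjusted p = 0.0746). With only genes of at least 5 mean CPM tested, the change in knockout was -0.76 and passed (adjusted p = 0.0402). Its 95% interval in control, -0.76 to 0.57, lay wholly above those of the 5 genes that fell, whose highest upper bound was -1.88. In knockout the interval of Nlrp4f, -1.37 to -0.04, overlapped that of Nlrp5, -2.68 to -0.70.

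Zbed3 had the widest spread of the 7 genes in control GV, at 16405 and 5403 CPM, and was at 19905 and 18067 CPM in control MII. In knockout it was at 29766 and 15434 CPM at GV and at 25051 and 21933 CPM at MII. The control MII libraries were both above the control GV libraries, and the knockout MII libraries lay between the knockout GV libraries. The change was 0.80 ± 0.53 in control (edgeR adjusted p = 0.229) and 0.06 ± 0.52 in knockout (adjusted p = 0.942). Without control GV replicate 1 the change in control was 1.80 and passed (adjusted p = 0.0221), and without control GV replicate 2 it was 0.19. The libraries of the stages did not overlap for 6 of the 7 genes in control and for 6 in knockout, where the same was true of 77.9% and 76.9% of all tested genes.

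**Figure D3:**
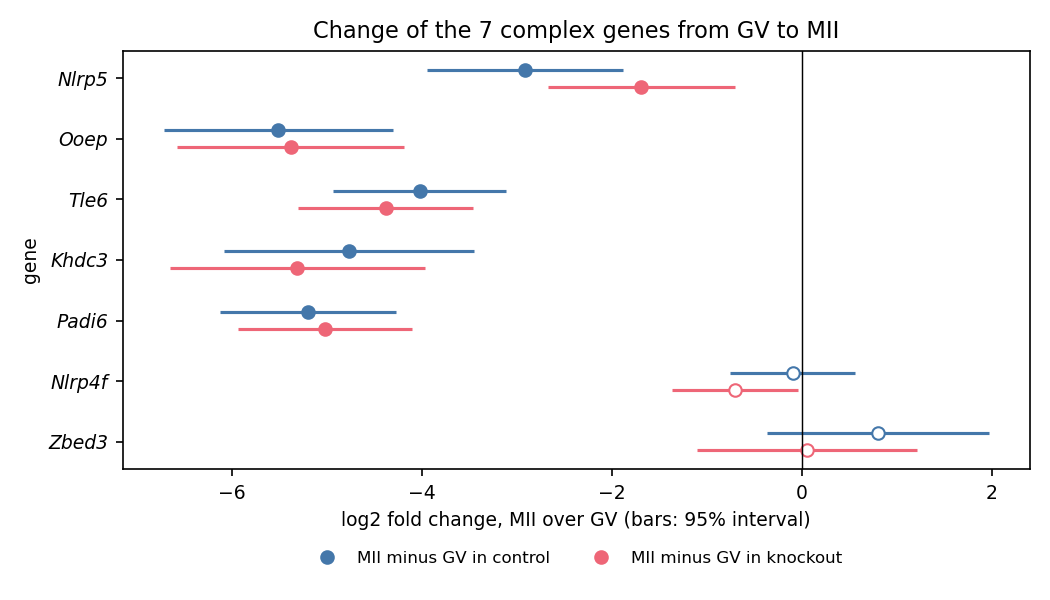
Log2 fold change from GV to MII for each of the 7 genes in control (blue) and knockout (red), with 95% intervals, filled where the change passed. The 5 filled pairs lie between -5.51 and -1.69, and the open pairs of Nlrp4f and Zbed3 lie between -0.70 and 0.80.

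Summed over the 5 genes that fell, the GV libraries held 17210 and 18161 CPM (control) and 22151 and 13993 CPM (knockout). The MII libraries held 881 and 800 CPM (control) and 1320 and 683 CPM (knockout). The knockout MII libraries differed from each other in 1 direction, as all 5 genes were higher in library 1 than in library 2, by 1.30-fold for Padi6 to 3.74-fold for Khdc3, while Nlrp4f was at 0.727 times. Of the 4342 other genes that fell in control, 3283 had reads in both of these libraries, and of those 56.4% were higher in library 1, with a median ratio of 1.12.

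The 5 genes that fell and the 2 that did not pass differed in the 3′ letters of their annotated ends: the element stood in Nlrp4f and Zbed3 and in none of the 5. For Ooep this is less certain. Its annotated last 100 bases also lack a poly(A) signal, which stood in 81.8% of 12185 tested coding genes. Whether Ooep mRNA ends there was not tested. With the 7 genes left out, the element stood in 9.28% of 3242 coding genes that fell in control, in 19.6% of 5980 that did not pass and in 31.7% of 2956 that rose. In knockout the shares were 10.8%, 20.1% and 30.4%. The calls of both genotypes come from the same fit and sort the same genes, so the shares are not independent repeats. They are descriptions across genes, with no test. A poly(A) signal stood in 74.0% of the genes that fell and in 87.9% of those that rose in control, so the annotated 3′ ends of the groups also differed in that measure.

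**Figure D4:**
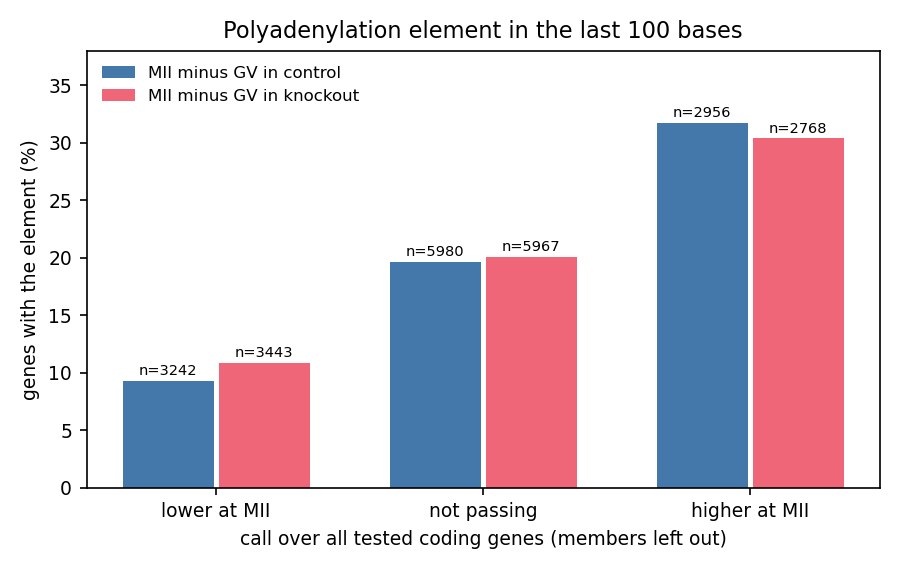
Percent of tested coding genes with TTTTAT or TTTTAAT in the last 100 bases, by their call from GV to MII in control and in knockout, with the number of genes above each bar and the 7 complex genes left out. The bars rise from 9.28% and 10.8% in genes that fell to 31.7% and 30.4% in genes that rose.

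The second comparison asked whether loss of BAF250a changes these transcripts. None of the 7 genes passed at GV, where 0.989% of all tested genes did (0.597% higher and 0.392% lower in knockout). None passed at MII, where 5.14% did (1.7% higher and 3.44% lower, edgeR quasi-likelihood test). DESeq2's Wald test also called 0 of 7 at both stages, where it called 2.06% of all genes at GV and 7.59% at MII. With no filter on low counts, edgeR called 1 of 7 at each stage, Zbed3 at GV (1.06, adjusted p = 0.0477) and Nlrp5 at MII (1.10, adjusted p = 0.0118). In that setting 2.09% of all genes passed at GV and 7.26% at MII, in either direction. At an unadjusted p below 0.05 there was 1 gene at each stage in the main edgeR fit, Nlrp4f at GV and Nlrp5 at MII. Of all tested genes, 10.8% and 22.2% were below it. In TMM-scaled CPM, the libraries of the genotypes did not overlap for 2 of 7 genes at GV and 3 of 7 at MII, beside 46.4% of all tested genes at either stage. In all of these, Nlrp4f at both stages included, the knockout was higher, which was so for 22.6% of all tested genes at GV and 21.7% at MII.

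Nlrp4f at GV had knockout libraries at 850 and 653 CPM, both above the control libraries at 317 and 449 CPM. The difference was 0.97 ± 0.30 (unadjusted p = 0.00875, edgeR adjusted p = 0.217), with a 95% interval of 0.30 to 1.64. At MII its knockout libraries were also both above control, with a difference of 0.37 ± 0.30 (adjusted p = 0.531).

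Nlrp5 at GV had knockout libraries between the control libraries (-0.14 ± 0.43). At MII both knockout libraries, at 543 and 233 CPM, were above the control libraries at 198 and 168 CPM, with a difference of 1.08 ± 0.44 (unadjusted p = 0.0326, edgeR adjusted p = 0.182) and a 95% interval of 0.11 to 2.05. The difference was 0.36 without knockout MII replicate 1 and 1.64 without knockout MII replicate 2.

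Zbed3 differed by 1.05 ± 0.53 at GV (edgeR adjusted p = 0.537), where control GV replicate 1 lay within the knockout range, and by 0.31 ± 0.52 at MII (adjusted p = 0.8). Khdc3 differed by 0.83 ± 0.50 at GV (adjusted p = 0.654), with both knockout libraries above control in TMM-scaled CPM, and by 0.29 ± 0.53 at MII. Scaled by all gene reads alone, Khdc3 in knockout GV replicate 1 was at 114 CPM, below control GV replicate 2 at 147 CPM. The core genes Ooep and Tle6 and the lattice gene Padi6 had overlapping libraries at both stages. Ooep differed by 0.08 ± 0.45 and 0.21 ± 0.45, Tle6 by 0.14 ± 0.36 and -0.22 ± 0.36, and Padi6 by -0.18 ± 0.35 and -0.00 ± 0.35, at GV and MII in turn. The 95% interval of Padi6 was -0.95 to 0.60 at GV and -0.78 to 0.77 at MII, and a p that misses the threshold does not show that the genotypes are alike. Scaled by library totals alone, the median of all genes at GV shifted from -0.00 to -0.27, and Ooep and Tle6 were then at -0.25 and -0.18.

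**Figure D5:**
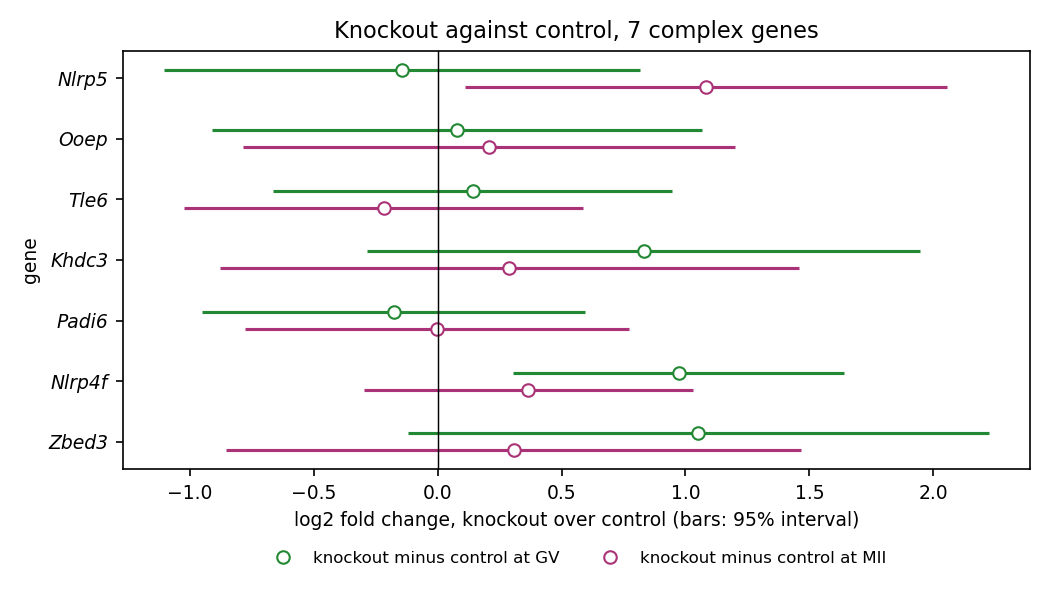
Log2 fold change of knockout over control for each of the 7 genes at GV (green) and MII (purple), with 95% intervals and open points where the change did not pass. All 14 points are open, and only the intervals of Nlrp4f at GV and Nlrp5 at MII lie wholly above 0.

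The difference between the knockout effects at MII and at GV was tested as an interaction. None of the 7 genes passed (edgeR quasi-likelihood test, 0.0835% of all tested genes did), and none had an unadjusted p below 0.05, where 11.5% of all tested genes did. It was 1.23 ± 0.62 for Nlrp5 (adjusted p = 0.479) and lay between -0.74 and 0.18 for the other 6 genes. The fall of Nlrp5 with maturation was therefore not shown to differ between the genotypes.

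Padi6 lies on the chromosome of Arid1a, 6.97 Mb away. Of 13 coding genes tested within 500 kb of it, none passed at GV and 1, Szrd1, fell at MII (-1.57, edgeR adjusted p = 0.0292). On chromosome 4 without Arid1a, 2.09% of 956 genes passed at GV and 7.74% at MII, beside 0.989% and 5.14% of all tested genes.

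Genes whose products are known to bind or act with the complex were read next, as a list of 6. With maturation 4 of 6 fell in each genotype, where 27.9% and 29.1% of all tested genes did. Skp1a, a ubiquitin ligase adaptor, changed by -4.01 ± 0.36 in control and -3.86 ± 0.36 in knockout, on the log2 scale. Cfl1, the actin-severing protein cofilin, changed by -2.72 ± 0.34 and -2.89 ± 0.35, and Nlrp2 by -2.49 ± 0.36 and -2.64 ± 0.36. The NLR-family gene Nlrp14 was at 12.5% and 11.8% of its GV level. Ube2d3, a ubiquitin-conjugating enzyme, rose by 1.67 ± 0.30 and 2.18 ± 0.30. Uhrf1, which brings Dnmt1 to replicating DNA, was at -0.25 and -0.45 and did not pass. None of the 6 passed between genotypes at either stage, where 0.989% of all tested genes did at GV and 5.14% at MII.

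Relatives of the complex genes moved in both directions with maturation. Of all tested genes, 21.2% rose and 27.9% fell in control, and 19.9% rose and 29.1% fell in knockout. Of 4 KH-domain genes related to Ooep and Khdc3, Dppa5a fell, with a change of -5.69 ± 0.41 in control and -5.22 ± 0.40 in knockout. The other 3 rose in both, Khdc1a by 1.31 ± 0.27 and 1.40 ± 0.27, Khdc1b by 1.22 and 1.59 and Khdc1c by 1.18 and 1.57. Khdc1b thus went from 1933 ± 48.7 to 4491 ± 225 CPM in control while Khdc3 fell.

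Of 9 other tested NLRP genes, Nlrp2 and Nlrp14 included, 4 rose and 3 fell in control and 3 rose and 3 fell in knockout. Over all tested genes 21.2% rose and 27.9% fell in control, and 19.9% and 29.1% in knockout. Nlrp9b changed by -2.96 ± 0.32 and -3.54 ± 0.32, whereas its relative Nlrp9c rose by 1.42 ± 0.34 and 1.90 ± 0.35. Nlrp4a and Nlrp4e, of the same branch as Nlrp4f, rose by 1.25 and 1.10 in control and by 0.81 and 0.76 in knockout, and Nlrp4b rose by 0.95 in control.

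Of 3 tested TLE genes, Tle4 rose by 1.29 ± 0.42 and 1.44 ± 0.42 and Aes fell (-2.04 ± 0.38 and -1.66 ± 0.37). Tle1 passed in knockout (-1.82 ± 0.59) and not in control, a difference between genotypes that did not pass. Zbed4, 1 of 2 tested ZBED relatives, rose by 0.86 ± 0.30 and 1.49 ± 0.30. Of 3 tested peptidylarginine deiminases, Padi1 passed as lower in control, from 0.442 ± 0.0319 CPM to 0 reads in both MII libraries, and no Padi gene passed in knockout. With maturation, 49.1% of all tested genes passed in control and 49.0% in knockout, in either direction. No gene of these 5 families passed between genotypes at either stage, where 0.989% of all tested genes did at GV and 5.14% at MII.

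Transcription factors of the growing oocyte, some of which are known to drive genes of the complex, were a list of 7. With maturation 3 fell in both genotypes, where 27.9% of all tested genes did in control and 29.1% in knockout: Figla, a bHLH factor (-5.72 ± 0.64 and -8.72 ± 0.79), Nobox, a homeobox factor (-4.88 ± 0.37 and -4.35 ± 0.36), and Lhx8, a LIM-homeobox factor (-2.51 ± 0.31 and -2.02 ± 0.30). Sohlh2 rose by 2.00 ± 0.39 and 1.29 ± 0.39, and Taf4b rose in control by 1.69 ± 0.51. Figla was also lower in knockout than in control at MII (-3.15 ± 0.79, edgeR adjusted p = 0.0482), where few reads were left (0.632 ± 0.52 against 0.0636 ± 0.0365 CPM). The knockout MII mean of Figla lies below the level of 3 reads in a library, 0.0901 and 0.104 CPM, so the sizes of its fitted changes are uncertain. No factor of the list passed at GV, where 0.989% of all tested genes did and Figla differed by -0.15 ± 0.51. At MII 5.14% of all tested genes passed. RefSeq (GRCm38.p6) lists 11 starts for the 7 genes. The letters CANNTG, which bHLH factors can bind, stood on either strand in the 250 bases before all 11. They also stood in 66.2% of 32851 mouse promoters. Other letters searched in the same bases were rarer. TAATTG or TAATTA, or their complements, stood only before a start of Nlrp5 and the start of Ooep, and in 11.3% of the promoters. TATAAA or its complement stood only before a start of Nlrp5 and a start of Zbed3, and in 12.4% of the promoters.

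Of 18 other genes of maternal effect, 8 fell and 5 rose in control and 7 fell and 4 rose in knockout, where 27.9% and 21.2% of all tested genes did in control and 29.1% and 19.9% in knockout. The largest changes were those of Zar1l (-6.23 ± 0.68 and -7.16 ± 0.71), the histone chaperone Npm2 (-3.74 ± 0.41 and -3.29 ± 0.40), the deubiquitinase Uchl1 (-3.48 ± 0.39 and -4.10 ± 0.41) and the DNA methyltransferase Dnmt1 (-3.23 ± 0.38 and -3.42 ± 0.38), in control and knockout in turn. None of the 18 passed between genotypes, where 0.989% of all tested genes did at GV and 5.14% at MII.

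Genes of like pattern were named by the root mean square distance of their centred log2 CPM from the mean profile of the 7 genes, over 8 libraries and 8635 genes with a mean of at least 5 CPM. The 10 nearest were Myocos, Kpna2, Prkag1, Cfl1, Dnmt1, Pabpc1l, Surf1, Tomm22, Ftsj3 and Foxr1, at distances of 0.166 to 0.263 and correlations of 0.987 to 0.998. Cfl1 and Dnmt1 are thus both among the genes already described. Myocos, the nearest, went from 161 ± 17.1 CPM in control GV to 21.4 ± 0.205 CPM in control MII and from 187 ± 46.5 to 25.5 ± 7.57 CPM in knockout. The 7 genes themselves lay farther from their own mean, from 0.575 for Tle6 to 1.93 for Zbed3, whose correlation with the mean profile was -0.31, beside 0.49 for Nlrp4f and 0.94 to 0.99 for the 5 genes that fell. Of the 8635 genes, 5.55% lay closer to the mean profile than Tle6 did, 26.3% closer than Ooep and 55.0% closer than Zbed3. All these values share the same 8 libraries and are descriptions.

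Some of these counts are less certain than others. Of the exon bases of Khdc3, 790, or 38.5%, are also covered on the same strand by Gm20509, which held 0 reads. The sources used here do not say how reads in shared bases were counted. With those bases left out of its length, Khdc3 was at 86.1 ± 14.0 CPM per kb in control GV and 3.17 ± 0.918 in control MII, and its libraries then overlapped those of Nlrp4f at GV. Of all stretches of 50 bases, 8.93% in Nlrp5 occur also in Gm18757, Gm45925 or Nlrp5-ps, and 7.08% in Nlrp4f occur in Nlrp4a, Nlrp4g, Gm18775 or Gm47180, so reads there could be split or lost. For Ooep and Tle6 the shares were 1.34% and 1.17%, and for Padi6 and Zbed3 no stretch was shared.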

How the data were processed

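The values are counts of reads per Ensembl gene, deposited by the authors as whole numbers in 1 table. Per the submitters' processing notes, mm10, Bowtie2, HTSeq and edgeR were used. The sources used here give no versions, annotation release, strand setting, counting mode, filters or RNA selection, so reads from a gene and its antisense partner cannot be told apart. Per the file headers, 2 columns carry the name of the second control MII library. They are called control MII a and b here and have no replicate number. The 5 summary entries, 22% to 35.13% of reads, stayed out of library sizes, and 0 value columns were left unused. Replicates differed by more than sampling noise (chi-square per degree of freedom 39.1 to 84.8).

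The fit used edgeR 4.0.16 (R 4.3.3) over all 8 libraries, with 1 term per group, filterByExpr, TMM scaling and the two-sided quasi-likelihood F-test (4 residual and 6.3 prior degrees of freedom, common biological coefficient of variation 0.507). P-values were adjusted by Benjamini-Hochberg over 15572 genes in each of 5 contrasts, with a threshold of 0.05. CPM of single genes are relative to reads in tested genes, and those of marker lists to all gene reads. Positions, exon lengths and transcripts came from GENCODE M21, which names 54809 of the identifiers, and promoters from RefSeq. The test was checked on simulated counts. Alternatives were DESeq2 1.42.0, its size factors, library totals, other filters, only the groups compared, a replicate block and leaving out each library. The members and lists were chosen with earlier results of these data known. Named were all 7 members, called genes of their partner and family lists, and up to 4 called genes with the largest changes from each of the lists of transcription factors, NLRP genes and other maternal-effect genes. Szrd1, Taf4b, the cell type markers given by name, Nlrp4a, Nlrp4b and Nlrp4e were named after their values were seen.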

Additional observations from a re-analysis of the deposited data

How the results depend on the processing

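The falls of Ooep, Tle6, Khdc3 and Padi6 with maturation passed under every alternative run in both genotypes, and that of Nlrp5 passed in control under every alternative. Without 1 library at a time, 4 to 5 genes fell in knockout, where Nlrp5 lost its call without knockout MII replicate 2, and 0 to 1 rose in control, where Zbed3 passed without control GV replicate 1. With no filter on low counts, 1 gene passed as higher in knockout at GV (Zbed3, 1.06, edgeR adjusted p = 0.0477) and 1 at MII (Nlrp5, 1.10, adjusted p = 0.0118). In that setting 2.09% of all genes passed at GV and 7.26% at MII, in either direction. With genes of at least 5 mean CPM, Nlrp4f fell in knockout (-0.76, adjusted p = 0.0402). With the replicate block, 1 gene passed as higher at GV (Nlrp4f, 0.97, adjusted p = 0.0385), and that fit, on the 4 GV libraries alone, called 1522 of 13992 genes (10.9%), against 702 (5.02%) in the same libraries without the block and 154 in the fit over all 8. Only GV and the knockout have 2 numbered pairs, whose deviations correlated at 0.12 and -0.02, so the numbers were not shown to pair the samples, and no other call changed with the block. The cause of these changes was not tested. Over all genes, the calls ranged from 29 to 1522 at GV, 392 to 1914 at MII (main 800) and 0 to 498 for the interaction (main 13).

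Changes of sign were confined to differences that did not pass. Scaled by library totals, Ooep and Tle6 at GV were at -0.25 and -0.18. Padi6 at MII was at 0.019 with DESeq2 size factors, 0.013 with no filter and 0.018 by DESeq2's Wald test, and Zbed3 in knockout maturation was at -0.029 with DESeq2 size factors and -0.028 by the Wald test. Leaving out 1 library, the knockout difference at GV ranged from -0.57 to 0.46 for Nlrp5, -0.50 to 0.50 for Ooep, -0.16 to 0.41 for Tle6 and -0.51 to 0.20 for Padi6. At MII it ranged from -0.40 to 0.71 for Ooep, -0.68 to 0.22 for Tle6, -0.95 to 1.01 for Khdc3 and -0.19 to 0.25 for Padi6. Maturation ranged from -0.34 to 0.16 for Nlrp4f in control and -0.36 to 0.57 for Zbed3 in knockout. The interaction ranged from -0.48 to 0.76 for Ooep, -0.83 to 0.069 for Tle6, -1.79 to 0.17 for Khdc3 and -0.20 to 0.55 for Padi6. Without TMM, Tle6 in control GV was at 7757 CPM. The Khdc3 length without shared bases was chosen after seeing the data and gave 153 CPM per kb in knockout GV.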
